A study of Mus musculus with 16 samples.

Results

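CD24+ dendritic cells (DCs) sorted from an activated bone marrow culture were compared with CD24+ DCs sorted from unstimulated spleen. The comparison used the 8 arrays, of 16 in the series, whose titles name CD24 cells. These were 4 culture arrays, 2 of them from Ciita -/- and 2 from Ciita +/+ mice, and 4 spleen arrays with the same split. All 8 mice were of the B6 strain and carried Zbtb46 GFP/+, a reporter allele of a transcription factor of classical DCs. Each array came from a different mouse, and each mouse also gave an array of CD172a+ cells, which is used below only to ask whether the 2 subsets changed alike. For the culture, whole bone marrow was grown in 5% Flt3l for 9 days, treated with gamma interferon and then with LPS for 4 hours. The labels give the time in gamma interferon as 22 hours in one place and as 16 hours in another. Neither the age and sex of the mice nor the deleted part of Ciita is stated in the labels. The tissue of origin, the growth in Flt3l and the activation all differed between the culture and the spleen arrays and cannot be told apart, so a change below is a difference between 2 kinds of sample and not an effect of gamma interferon or LPS alone.

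CD24+ sorting of Flt3l cultures and of spleen is used to obtain cDC1, the classical DC subset that takes up dead cells and presents their antigens on MHC class I to CD8 T cells. LPS is sensed by Tlr4 and acts through NF-kB, the transcription factor family behind many inflammatory cytokines. Gamma interferon acts through JAK kinases and switches on genes with GAS sites, while type I interferon, which DCs can make after Toll-like receptor signals, acts on genes with an interferon-stimulated response element (ISRE). Mature DCs change their shape, display costimulatory ligands and move to lymph nodes.

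The values are log2 signals of 19187 genes, each given relative to the median of its own array. Array medians lay between 6.85 and 6.90 in culture and between 7.31 and 7.32 in spleen, so the deposited values of the 2 sources were not on one scale, and signals were centred for that reason. The median change of all genes was 0.09 after centring and -0.34 without it, and changes below are on the centred scale. In each array 25% of all probe sets lay below a centred signal of -1.29 to -1.24, according to the array, and values under that range are called low signals here. The deposited table holds no detection call, so whether a low signal stands above background cannot be told, and levels of different genes are not set against each other. Values per array are listed in the order Ciita -/- replicate 1, Ciita -/- replicate 2, Ciita +/+ replicate 1 and Ciita +/+ replicate 2. The number of arrays limits the precision, and since a sample is a bulk of sorted cells, fewer cells of a type and less RNA per cell cannot be told apart.

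Culture and spleen separated along the first principal component, which held 90.8% of the variance. Between 2 spleen arrays the SD of the differences over all genes was 0.159 to 0.189, between 2 culture arrays other than Ciita -/- replicate 2 it was 0.167 to 0.189, and between a culture array and a spleen array it was 0.810 to 0.897. The culture array labelled Ciita -/- replicate 2 stood apart on the second component (4.39% of the variance) and differed from the other 3 culture arrays with an SD of 0.248 to 0.341. It read 2.68 for Xcr1 against 3.51 to 3.99 in the other culture arrays, 1.71 for Cd8a against 2.28 to 3.10, and 2.27 for Sirpa, the gene of CD172a, against 1.49 to 1.54. Its mean over 21 cDC1 markers was 3.29 against 3.62 to 3.76. Over 19 cDC2 markers, which include Sirpa, its mean was 0.88, within the 0.85 to 0.93 of the other culture arrays. Cultured CD172a+ arrays averaged 1.12 to 1.37 over this list, so it separated the subsets little in culture. Whether this array held CD172a+ cells was not tested. Counts of a list are given without this array, or without another array, where leaving that array out moved them by more than 1.5 times.

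Ciita, the gene that was deleted, read 2.85, 1.24, 3.62 and 3.96 in culture and 3.87, 3.59, 3.65 and 3.73 in spleen. Its signal was lower in both Ciita -/- culture arrays than in the Ciita +/+ ones, while in spleen the genotypes overlapped. Where the probes lie relative to the deletion is not known, so the signal neither bears out nor contradicts the spleen labels. H2-Eb1, a class II beta chain that depends on Ciita, read 3.71, 3.0, 6.84 and 6.81 in culture and 4.55, 5.14, 6.73 and 6.74 in spleen. It thus separated the genotypes in both sources in the direction of the labels. H2-Ob, a chain of the class II regulator H2-O, did the same with 2.42, 1.41, 5.00 and 5.22 in culture and 2.48, 2.39, 4.83 and 4.85 in spleen.

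The labelled cell type was checked against its markers. The pan-DC marker Flt3, the receptor for Flt3l, read 4.27, 4.51, 4.69 and 4.36 in culture and 4.83, 4.80, 4.74 and 4.81 in spleen. Clec9a, a receptor for dead cells that marks cDC1, read 4.38, 3.99, 4.40 and 4.44 in culture and 5.24, 5.37, 5.20 and 5.15 in spleen. Both genes were far above the array median in all 8 arrays. Xcr1, Cadm1, Batf3, Irf8 and Naaa, further cDC1 markers, were likewise above it in all 8. The cDC1 markers Tlr3, Cd8a and Ly75 are given further below, and Itgae is shown only in the figure of these markers. Irf8 and Cd24a do not set CD24+ cells apart in culture, since cultured CD172a+ cells had close means, as given below. Clec4a4, a lectin of the cDC2 subset, had low signals between -2.61 and -2.41 in every array. Most other cDC2 markers were not that low. The mean of 19 measured cDC2 markers was 0.85 to 0.93 over the culture arrays and 1.41 to 1.67 over the spleen arrays. Of these 19, 3 lay in the lowest 25% of signals in each culture array and 1 in each spleen array. Cd24a, the gene of the antigen used for sorting, read 6.27, 6.10, 6.27 and 6.13 in culture and 5.36, 5.40, 5.36 and 5.40 in spleen.

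Iigp1, Il6 and Fscn1 mark the activated culture, and each was high in all 4 culture arrays. Iigp1, an immunity-related GTPase that attacks the vacuoles of intracellular parasites, read 5.35, 5.08, 5.23 and 5.25 in culture and -1.24, -0.32, -1.02 and -1.59 in spleen. The spread among the spleen arrays was wider than that among the culture arrays, and the groups were far apart. Its change was 6.27 ± 0.22 on the log2 scale (SE, 77.4-fold, limma adjusted p = 9.49e-07). Il6, an inflammatory cytokine, read 5.59, 5.32, 5.34 and 5.40 in culture and -0.82, -0.48, -0.81 and -1.20 in spleen, a change of 6.24 ± 0.12 (75.5-fold, adjusted p = 1.63e-07). Fscn1, the actin bundler of mature DCs, read 6.38, 7.01, 6.69 and 6.26 in culture and 2.08, 2.44, 2.49 and 2.54 in spleen, a change of 4.20 ± 0.17 (18.3-fold, adjusted p = 1.62e-06). No culture array overlapped a spleen array for any of the 3 genes.

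Most genes differed. Of 19187 genes tested, 13968 (72.8%) were called at an adjusted p of 0.05. In culture 8178 of these were higher (42.6%) and 5790 lower (30.2%). Counts of list members below are to be read beside these shares. Without any centring the split was 2478 higher and 12279 lower, and with arrays centred on the 75th percentile it was 10102 and 4584, so the share of genes called higher or lower rests on the scaling. A stricter rule therefore also asks for a change of at least 2-fold. It held for 1215 genes higher (6.33%) and 1657 lower (8.64%) in culture, and 2863 of these 2872 were called with the same sign under all 3 other scalings. That agreement was largely fixed by the rule. Leaving out the centring, or centring on the 75th percentile, moves every change by the same amount, which is under 2-fold. Without the culture array Ciita -/- replicate 2 the rule gave 1227 and 1569. In 2865 of the 2872 genes the 4 culture and the 4 spleen arrays did not overlap, against 68.9% of all genes tested (40.6% with all culture arrays above and 28.3% with all spleen arrays above). The 2872 genes were picked for a large change on these same arrays, so their lack of overlap is not separate support. Changes of 8-fold or more were reached by 102 genes higher and 74 genes lower in culture.

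**Figure D1:**
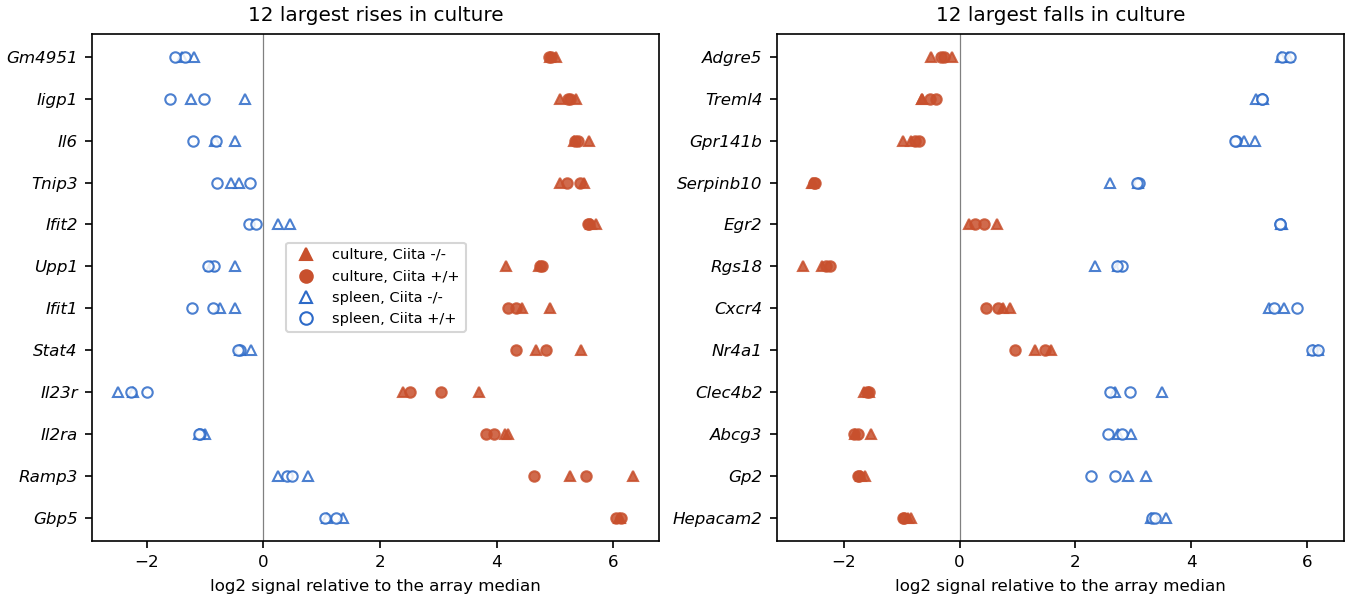
Signal in each of the 8 CD24+ arrays of the 12 genes with the largest rise (left) and the 12 with the largest fall (right) in culture. The horizontal axis is the log2 signal relative to the array median, filled orange symbols are culture arrays, open blue symbols are spleen arrays, triangles are Ciita -/- and circles Ciita +/+. The 2 sources do not overlap for any of the 24 genes, as the naming rule required, and Il23r and Ramp3 have the widest spread among culture arrays.

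The 12 largest rises were led by Gm4951, an annotated gene model on chromosome 18, at 6.30 ± 0.07 (79.0-fold), followed by Iigp1 and Il6. Tnip3, a protein that binds the NF-kB inhibitor A20, rose by 5.80 ± 0.15. Ifit2 (5.54 ± 0.06) and Ifit1 (5.30 ± 0.14) bind viral RNA and are induced by interferon. Stat4, the transcription factor downstream of IL-12, read 4.67, 5.44, 4.84 and 4.34 in culture and -0.21, -0.40, -0.40 and -0.44 in spleen, a rise of 5.18 ± 0.18. Il23r, a subunit of the IL-23 receptor, rose by 5.16 ± 0.28 from low signals of -2.49 to -2.00 in spleen. Il2ra, the alpha chain of the IL-2 receptor also known as CD25, read 4.19, 4.15, 3.81 and 3.95 in culture and between -1.11 and -1.0 in spleen, a rise of 5.10 ± 0.05. Upp1, which cleaves uridine (5.39 ± 0.14), Ramp3, a partner of peptide hormone receptors (4.96 ± 0.29), and Gbp5, a guanylate-binding protein (4.91 ± 0.08), completed the 12. In Ramp3 the culture arrays ranged from 4.64 to 6.34, the highest being Ciita -/- replicate 2.

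Among the 12 largest falls, Adgre5, the adhesion receptor CD97, read -0.13, -0.49, -0.32 and -0.27 in culture and 5.67, 5.55, 5.57 and 5.71 in spleen. It fell by 5.92 ± 0.09 on the log2 scale (60.7-fold, adjusted p = 8.22e-08). Treml4, a receptor of the Trem family, read between -0.65 and -0.41 in culture and between 5.12 and 5.24 in spleen (-5.76 ± 0.05). The lectin Clec4b2 (-4.52 ± 0.17) and the orphan receptor Gpr141b (-5.70 ± 0.06) fell as well. So did Rgs18, a regulator of G protein signals (-5.06 ± 0.11), Serpinb10, a member of the serpin family (-5.49 ± 0.10), and Abcg3, an ABC transporter (-4.50 ± 0.09). Gp2, a glycoprotein known from the gut epithelium (-4.48 ± 0.11), and Hepacam2, an immunoglobulin family protein (-4.30 ± 0.06), stood at the end of the list. Cxcr4, the receptor for Cxcl12, read 0.75, 0.88, 0.66 and 0.46 in culture and 5.60, 5.34, 5.43 and 5.82 in spleen (-4.86 ± 0.11). Egr2 and Nr4a1, which are immediate early transcription factors, are given with their list below.

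Genes known to respond to interferon were higher in culture almost without exception. All 10 measured interferon-inducible GTPases rose, all by at least 2-fold, with a median of 3.0 against 0.09 for all genes. Besides Iigp1, Gbp5 read 6.09, 6.12, 6.13 and 6.04 in culture and 1.09, 1.37, 1.25 and 1.05 in spleen. Irgm1, a regulator of the other GTPases, rose by 3.86 ± 0.08, Gbp7 by 3.86 ± 0.07, Gbp3 by 3.29 ± 0.08 and Gbp4 by 2.71 ± 0.07. The smallest rise of the list was 1.37. Of 26 type I interferon-stimulated genes 25 rose, 23 of them by at least 2-fold, with a median of 2.90. Ifit3b (0.06) was the member that did not pass.

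Ifit2 read 5.71, 5.62, 5.58 and 5.56 in culture and 0.26, 0.45, -0.25 and -0.13 in spleen. Oasl1 (4.80 ± 0.09) and Oasl2 (4.36 ± 0.06) belong to the oligoadenylate synthetase family of antiviral proteins. Cmpk2, a mitochondrial nucleotide kinase (4.68 ± 0.07), and Rsad2, the antiviral enzyme viperin (4.36 ± 0.12), also rose. The culture arrays were tight in these genes. Rsad2 read 4.94, 4.86, 4.94 and 4.99 there, against 0.50, 0.97, 0.58 and 0.26 in spleen.

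Of 13 measured genes of gamma interferon signalling 11 rose and 1 fell (2 fell without either culture Ciita -/- array). Ifngr1, the ligand-binding chain of the receptor, read 3.0, 2.03, 2.79 and 2.98 in culture and 5.33, 5.20, 5.22 and 5.24 in spleen, and fell by 2.55 ± 0.19 (5.84-fold). Ifngr2, the other chain, rose by 0.85. Irf1, an early target of the pathway, read 4.88, 5.15, 4.97 and 4.63 in culture and 1.40, 1.60, 1.47 and 1.53 in spleen, and rose by 3.41 ± 0.10. Pml, a nuclear body protein, rose by 2.39 ± 0.07, the class I transactivator Nlrc5 by 1.81 ± 0.10, the kinase Jak2 by 1.55 ± 0.05 and the feedback inhibitor Socs3 by 1.53 ± 0.10.

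Class I presentation, which gamma interferon is known to raise, was higher in culture in 13 of 16 members, and none was lower. Tapbp, the peptide-loading chaperone tapasin, read 5.79, 5.81, 5.75 and 5.68 in culture and 3.91, 3.84, 3.57 and 3.66 in spleen (2.01 ± 0.05). The peptide transporters Tap1 (1.30 ± 0.05) and Tap2 (1.19 ± 0.08) rose by smaller amounts, as did the tapasin relative Tapbpl (1.31 ± 0.07) and the class I gene H2-Q4 (1.46 ± 0.16). Psme2, a proteasome activator subunit, rose by 0.87 ± 0.08. With no centring 8 of the 16 members were called higher and 2 lower, and the 5 that had passed 2-fold became 2.

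**Figure D2:**
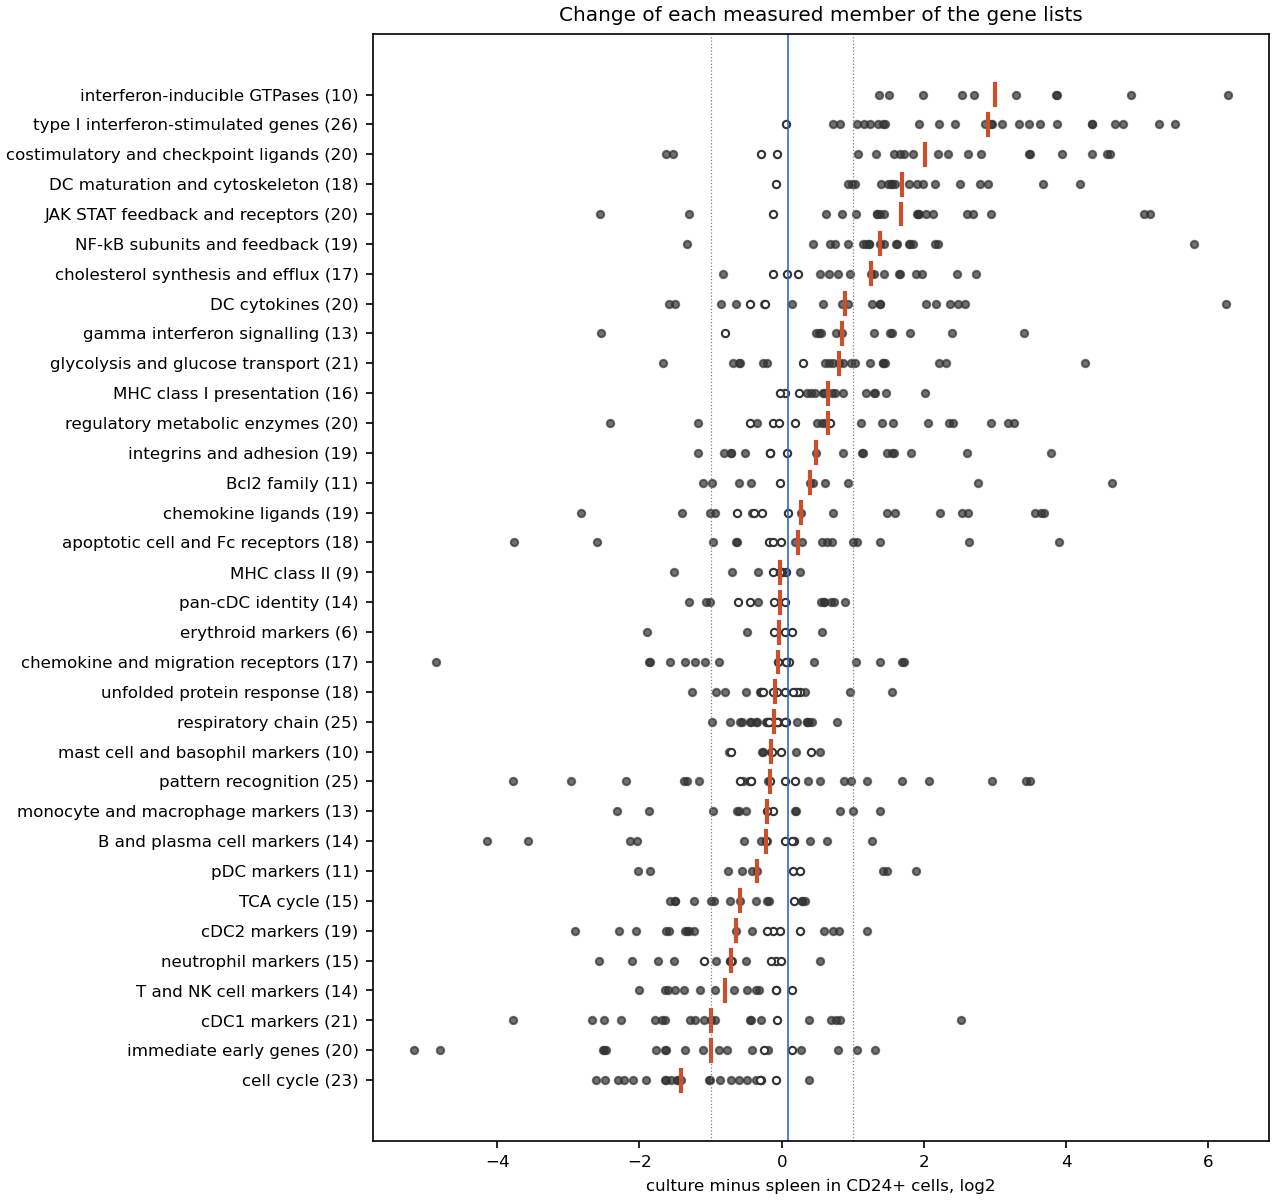
Change between culture and spleen of every measured member of the 34 gene lists, with the number of measured members in parentheses. The horizontal axis is the log2 change in CD24+ cells, filled points passed an adjusted p of 0.05 and open points did not, orange bars are list medians, the blue line is the median of all genes tested (0.09), and dotted lines mark 2-fold. The interferon-inducible GTPases and the type I interferon-stimulated genes lie at the top with medians of 3.0 and 2.90. Gamma interferon signalling lies further down with 0.85, and the cell cycle list at the bottom with -1.41.

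The promoters below were searched for the motifs of these pathways, and 4 that hold matches are shown. Each is the 250 bases before the RefSeq start of the gene on GRCm38.p6, 5' to 3' on the strand of the gene, with motif matches in capitals. The motifs searched on both strands were, for the ISRE, GAAA, any 2 bases and GAAA, for GAS, TTC, any 3 bases and GAA, and for kappaB, the site of NF-kB, GGG, any 2 bases, TT, any 1 base and CC. Matches of different motifs may overlap. Il6 (chr5:30012864-30013113, plus strand) and Gbp5 (chr3:142496684-142496933, plus strand) followed from the naming rule, as did Ccl17 (chr8:94810203-94810452, plus strand). Cxcl10 (chr5:92348890-92349139, minus strand) was chosen after its values and sequence were seen.
Il6: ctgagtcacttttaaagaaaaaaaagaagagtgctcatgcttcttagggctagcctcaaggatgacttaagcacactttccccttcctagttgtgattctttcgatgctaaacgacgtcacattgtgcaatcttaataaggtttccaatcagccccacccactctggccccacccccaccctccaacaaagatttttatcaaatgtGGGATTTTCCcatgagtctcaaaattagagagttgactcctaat
Gbp5: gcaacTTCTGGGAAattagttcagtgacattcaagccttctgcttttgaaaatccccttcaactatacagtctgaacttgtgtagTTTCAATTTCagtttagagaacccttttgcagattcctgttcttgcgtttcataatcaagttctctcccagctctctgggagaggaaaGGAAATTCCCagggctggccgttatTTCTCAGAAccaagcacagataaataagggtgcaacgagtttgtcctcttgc
Ccl17: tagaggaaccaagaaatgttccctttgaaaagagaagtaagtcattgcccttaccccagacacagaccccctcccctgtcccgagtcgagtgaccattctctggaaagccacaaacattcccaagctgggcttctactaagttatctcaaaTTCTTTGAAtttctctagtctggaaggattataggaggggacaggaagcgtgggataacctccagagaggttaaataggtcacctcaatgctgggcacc
Cxcl10: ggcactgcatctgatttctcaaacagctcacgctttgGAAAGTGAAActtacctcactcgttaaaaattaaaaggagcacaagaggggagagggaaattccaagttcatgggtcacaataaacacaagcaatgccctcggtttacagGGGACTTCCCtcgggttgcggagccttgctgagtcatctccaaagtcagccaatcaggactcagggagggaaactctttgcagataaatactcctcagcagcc
Il6 holds a kappaB match between 44 and 35 bases before the start. Gbp5 holds an ISRE match on the opposite strand, 165 to 156 bases before it, a kappaB match at 77 to 68 on the opposite strand, and 2 GAS matches. Cxcl10 holds an ISRE match at 213 to 204 and a kappaB match at 103 to 94 bases before the start, and Ccl17 holds a GAS match at 99 to 91. In the same window of Fscn1 and of Ptgs2 none of these letters occurred. Ifit2, among the largest rises, has 2 listed starts, and neither window held an ISRE or a kappaB match. One of them held a GAS match, 241 to 233 bases before the start. The window of Iigp1 is not given here.

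Over all tested genes with a promoter entry (15008 of 19187), 3.42% held an ISRE match in this window, 7.74% a GAS match and 5.08% a kappaB match. Among the 82 genes with an entry that rose by at least 8-fold, the shares were 17.1% for the ISRE, 9.76% for GAS and 15.9% for kappaB. Among the 62 that fell by at least 8-fold they were 9.68%, 3.23% and 8.06%, the first from 6 genes. All 5 interferon-inducible GTPases with an entry held an ISRE match, as did 10 of 21 type I interferon-stimulated genes. A kappaB match stood in 6 of 12 chemokine ligands and in 7 of 16 genes of the NF-kB list. These shares describe letters in a window and not bound sites.

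The NF-kB list, which holds subunits of the factor and its feedback inhibitors, rose in 18 of 19 members with a median of 1.38. Tnip3 led it with 5.49, 5.08, 5.20 and 5.42 in culture and -0.42, -0.56, -0.79 and -0.23 in spleen. Relb, the subunit of the alternative pathway, read 5.14, 5.25, 5.31 and 5.03 in culture and between 2.93 and 3.12 in spleen (2.16 ± 0.08). Bcl3 (2.20 ± 0.09) and Nfkbiz (1.84 ± 0.09) are nuclear IkB proteins that modify NF-kB target choice. The ubiquitin ligase Birc3 rose by 1.81 ± 0.07 and the A20 partner Tnip1 by 1.79 ± 0.06. Nfkbid, another nuclear IkB protein, was the 1 member that fell (-1.33). Nfkb1 was not tested here for want of a probe set with a single symbol.

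Of 20 measured cytokine genes, 13 rose (65%) and 5 fell (25%), against 42.6% and 30.2% of all genes. Il6 was followed by Il15, a growth factor of NK and memory CD8 T cells, at 4.50, 4.93, 4.50 and 4.48 in culture and 1.87, 2.27, 2.20 and 1.76 in spleen (2.57 ± 0.15). Il27 (2.48 ± 0.05) and Ebi3 (2.36 ± 0.07) encode the 2 chains of IL-27, and both rose. Il12b, the p40 chain of IL-12 and IL-23, was already high in spleen at 4.90, 4.95, 4.61 and 4.73, and reached 7.04, 6.99, 6.95 and 6.91 in culture (2.17 ± 0.05). Tnfsf10, the death ligand TRAIL, rose by 2.03 ± 0.07 from low signals between -2.07 and -2.02 in spleen. Tnf rose by 1.38 ± 0.23, with a culture range of 4.81 in Ciita -/- replicate 2 to 5.96. Il1a fell (-1.58), and so did Il10 (-0.85 ± 0.06). Il10 had low signals between -2.45 and -2.31 in culture and read between -1.77 and -1.26 in spleen, under or at the low range. Whether its signal stood above background in either source cannot be told.

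Of 19 measured chemokine ligands 10 rose (52.6%) and 5 fell (26.3%), not far from the shares of all genes (42.6% and 30.2%). Their median of 0.28 turned to -0.15 without centring. Ccl17 and Ccl22, the ligands of Ccr4, rose together. Ccl17 read 4.10, 4.08, 2.88 and 3.42 in culture and -0.16, 0.03, -0.03 and -0.11 in spleen (3.69 ± 0.12). Ccl22 read 5.17, 5.25, 4.93 and 4.85 in culture and between 1.33 and 1.56 in spleen (3.64 ± 0.06). In both genes each Ciita -/- culture array was above each Ciita +/+ one. Cxcl10, a ligand of Cxcr3 on activated T cells, read 5.42, 5.55, 5.36 and 5.34 in culture and 1.64, 1.89, 1.86 and 2.01 in spleen (3.57 ± 0.07). Its relative Cxcl11 rose by 2.62 ± 0.06 and the neutrophil attractant Cxcl1 by 2.54 ± 0.10. Ccl2, which attracts monocytes, went the other way, from 2.83, 3.17, 2.93 and 2.67 in spleen to between -0.08 and 0.20 in culture (-2.81 ± 0.11).

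Among 17 receptors of chemokines and migration cues 5 rose and 8 fell. Their median of -0.05 turned positive (0.08) when arrays were centred on the 75th percentile, was -0.43 without the culture array Ciita -/- replicate 2, and turned to about 0 on the positive side without the culture array Ciita +/+ replicate 2 or the spleen array Ciita +/+ replicate 1. Cxcr4 has been given above. Ccr7, which guides mature DCs to lymph nodes, read 6.42, 6.67, 6.46 and 6.26 in culture and 4.97, 5.13, 5.10 and 5.08 in spleen, a rise of 1.38 ± 0.08. Cxcr5, the follicle homing receptor, rose by 1.69 ± 0.14. S1pr3, a sphingosine phosphate receptor, gave 1.72 ± 0.32, with 1.70 in Ciita -/- replicate 2 and -0.09 to 0.07 in the other culture arrays. Without that array its signal in culture is still above the -1.49 to -1.11 of the spleen arrays. Ccr2 (-1.87 ± 0.13) and Gpr183, a receptor for oxysterols (-1.57 ± 0.13), fell.

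DC maturation genes and ligands for T cells were among the lists with the highest medians. Of 18 maturation and cytoskeleton genes 17 rose, 15 by at least 2-fold (median 1.69), and Cd83 (-0.08) did not pass. Socs2, a cytokine feedback protein, read 5.27, 5.94, 5.50 and 5.05 in culture and 1.73, 1.79, 1.98 and 1.57 in spleen (3.67 ± 0.18). Rasa2, a Ras GTPase activator (2.90 ± 0.22), the nucleotide hydrolase Nudt17 (2.79 ± 0.19) and Il15ra, which presents IL-15 (2.50 ± 0.18), followed. In all 4 of these genes and in Fscn1 the highest culture value was that of Ciita -/- replicate 2.

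Of 20 costimulatory and checkpoint ligands 16 rose, all 16 by at least 2-fold, and 2 fell (4 without the culture array Ciita -/- replicate 1), with a median of 2.02. Both ligands of the inhibitory receptor PD-1 rose. Pdcd1lg2 read 4.45, 4.68, 3.99 and 3.98 in culture and -0.43, -0.10, -0.18 and -0.61 in spleen (4.61 ± 0.12), and Cd274 read 5.57, 5.92, 5.56 and 5.37 in culture and 2.02, 2.27, 1.99 and 2.18 in spleen (3.49 ± 0.11). Of the ligands known to drive T cells, Cd70 rose by 4.36 ± 0.14, Cd40 by 3.47 ± 0.08, Cd80 by 1.57 ± 0.07 and Cd86 by 1.08 ± 0.06. Cd40 was the most even of these, with 6.57 to 6.74 in culture and 3.07 to 3.38 in spleen. Tnfsf15, a ligand of the TNF family, rose by 4.57 ± 0.29, and Cd200, which restrains myeloid cells, by 3.95 ± 0.11. Havcr2, the receptor Tim-3 (-1.63), and Tnfsf18 (-1.54) fell.

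JAK and STAT genes rose in 17 of 20 members (2 lower, median 1.67). After Stat4 and Il2ra came Stat5a at 5.49, 5.03, 5.12 and 5.25 in culture and 2.25 to 2.34 in spleen (2.94 ± 0.10). The receptor chains Il21r (2.70 ± 0.21) and Il4ra (2.60 ± 0.09) rose, while Il6ra, the receptor for IL-6, fell from between 2.92 and 3.59 in spleen to between 0.74 and 0.85 in culture (-2.55 ± 0.11).

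Of 25 genes of microbe sensing 10 were higher and 10 lower, shares near those of all genes for the rises (42.6%) and above them for the falls (30.2%). Casp4, which binds LPS in the cytosol, rose by 3.49 ± 0.11, the nucleic acid sensor Zbp1 by 3.44 ± 0.11 and the RNA sensor Ifih1 by 2.95 ± 0.08. Tlr3, the endosomal sensor of double-stranded RNA that is high in cDC1, read 0.90, 0.63, 1.87 and 1.20 in culture and 5.08, 4.94, 4.82 and 4.87 in spleen (-3.78 ± 0.15, 13.7-fold). Cd14, a co-receptor for LPS, read between -0.85 and -0.60 in culture and between 1.78 and 2.67 in spleen (-2.96 ± 0.14). Tlr12 (-2.19 ± 0.09) and Tlr4 (-1.37) fell, while Tlr9, the sensor of CpG DNA, rose by 2.07 ± 0.15.

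**Figure D3:**
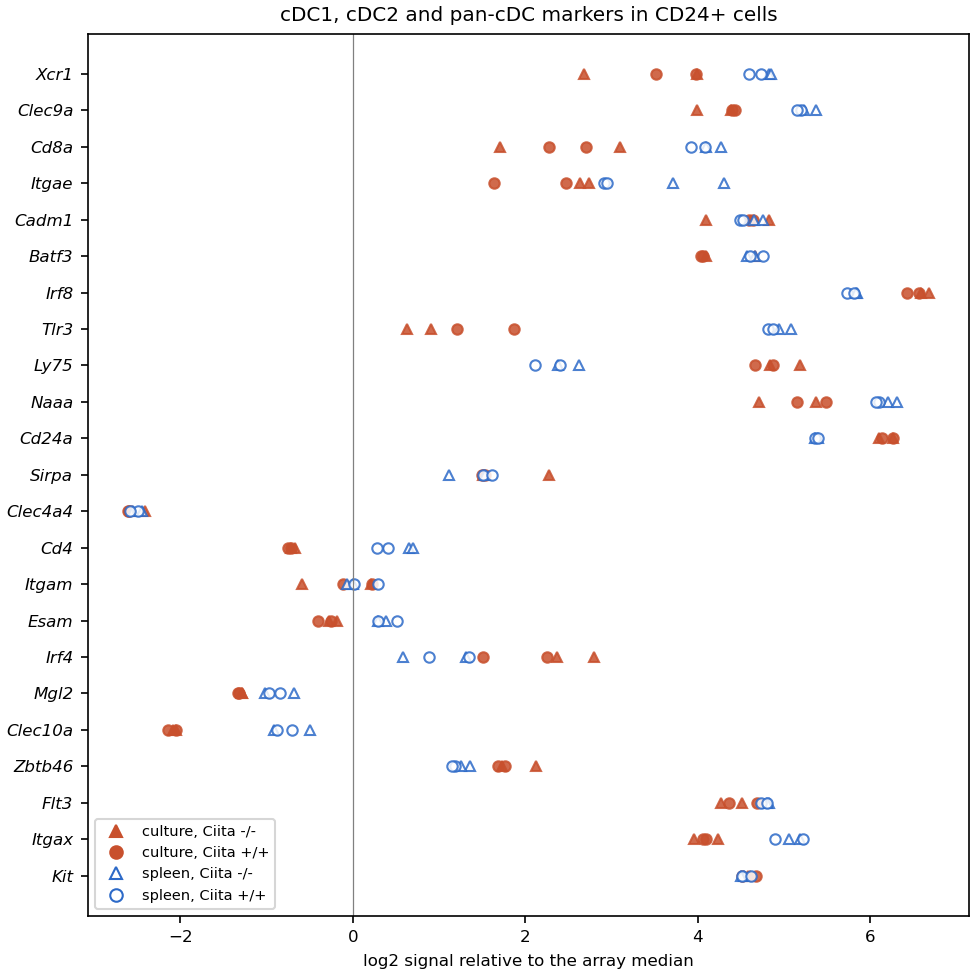
Signal in each CD24+ array of the markers of cDC1 (Xcr1 to Cd24a), cDC2 (Sirpa to Clec10a) and all classical DCs (Zbtb46 to Kit). The horizontal axis is the log2 signal relative to the array median, filled orange symbols are culture arrays and open blue symbols spleen arrays, with triangles for Ciita -/- and circles for Ciita +/+. Tlr3 reads at most 1.87 in culture and at least 4.82 in spleen, and Ly75 is higher in all 4 culture arrays.

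Markers of the subset itself were mostly lower in culture. Of 21 measured cDC1 markers 15 fell and 5 rose, with a median of -0.99, and 10 fell by at least 2-fold (9 without the culture array Ciita -/- replicate 2). Besides Tlr3, the lipid and vesicle genes Rab7b (-2.67 ± 0.24) and Plpp1 (-2.26 ± 0.27) fell, as did the lectin Cd207 (-2.49 ± 0.12) and the scavenger receptor Cd36 (-1.79 ± 0.17). Cd8a, the surface marker of spleen cDC1, read 3.10, 1.71, 2.28 and 2.70 in culture and 4.27, 4.10, 4.08 and 3.93 in spleen (-1.65 ± 0.28). Xcr1, the receptor for Xcl1, fell by 1.21 ± 0.27 and Clec9a by 0.94 ± 0.09. The transcription factor Irf8 rose by 0.76 ± 0.06, Cd24a by 0.81 ± 0.06, and the endocytic receptor Ly75, known as DEC-205, by 2.52 ± 0.11. Batf3, which cDC1 need to develop, gave -0.44 ± 0.12 (adjusted p = 0.0136). That call of Batf3 was lost when spleen array Ciita +/+ replicate 1 was left out (adjusted p just above the threshold) or when arrays were centred on the 75th percentile (adjusted p = 0.0666).

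cDC2 markers, which these cells should hold at low levels, fell in 11 of 19 members and rose in 4 (2 without the spleen array Ciita -/- replicate 2 or Ciita +/+ replicate 2), with a median of -0.65. Cd209a read between -0.79 and -0.53 in culture and 2.51, 1.28, 2.66 and 2.53 in spleen (-2.91 ± 0.24). S100a4 (-2.29 ± 0.18), the transcription factor Klf4 (-2.04 ± 0.08) and Ltb (-1.63 ± 0.07) also fell. Clec12a gave -1.59 ± 0.40, with culture arrays spread from 1.27 to 3.11. Irf4, which is also induced in mature DCs, rose by 1.20 ± 0.23. Among 14 genes of classical DC identity 6 rose (42.9%) and 4 fell (28.6%), near the shares of all genes (42.6% and 30.2%). The median of -0.03 became 0.10 with arrays centred on the 75th percentile and 0.07 without the culture array Ciita -/- replicate 2. It was 0.02 without the spleen array Ciita -/- replicate 1 or Ciita +/+ replicate 2. Zbtb46 rose by 0.59 ± 0.09, Itgax, the gene of CD11c, fell by 1.0 ± 0.10, and Runx3 fell by 1.31 ± 0.10. Of these 14 genes, 3 fell by at least 2-fold, and 1 did so without the culture array Ciita -/- replicate 2 or the spleen array Ciita -/- replicate 1.

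Of 9 MHC class II genes, over both genotypes, 1 rose (Cd74, the invariant chain, 0.26 ± 0.05, which was -0.17 without centring) and 3 fell, namely H2-Oa (-1.51 ± 0.12), H2-Eb1 (-0.70 ± 0.18) and H2-Eb2 (-0.33 ± 0.10). Without the culture array Ciita -/- replicate 2 2 rose and the median of -0.02 became 0.08, without the culture array Ciita -/- replicate 1 it was -0.15, and on centring by the 75th percentile it was 0.11. In Ciita +/+ mice alone H2-Eb1 changed by 0.09 and H2-Eb2 by 0.12, while in Ciita -/- mice they changed by -1.49 and -0.78. H2-Oa read 1.82, 1.27, 4.76 and 4.94 in culture and 3.90, 3.77, 5.60 and 5.54 in spleen, so that its change was -2.29 in Ciita -/- and -0.72 in Ciita +/+ mice. H2-Aa, the alpha chain of I-A, read 6.04, 5.52, 6.74 and 6.65 in culture and 5.89, 5.97, 6.41 and 6.47 in spleen (0.05 ± 0.11, adjusted p = 0.670). The call of H2-Eb2 was lost without the culture array Ciita +/+ replicate 1 (adjusted p = 0.0557) or the spleen array Ciita +/+ replicate 2 (adjusted p = 0.0523).

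Whether the culture change depended on Ciita was tested as the difference of the change between genotypes. No gene of 19187 (0%) passed an adjusted p of 0.05. An unadjusted p under 0.05 was reached by 735, a smaller share than that cut passes on average with no difference in any gene. H2-Oa gave a difference of -1.57 ± 0.24 (unadjusted p = 3.50e-04, adjusted p = 0.999), H2-Eb1 of -1.58 ± 0.36 and H2-Eb2 of -0.89 ± 0.19. With 2 arrays per genotype and source this test cannot show that the changes were alike. The count was 152 without the culture array Ciita -/- replicate 1, which leaves replicate 2, the array that stood apart, as the lone culture array of its genotype, and 0 without any other single array.

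Immediate early genes, whose transcripts appear within minutes of a stimulus and decay quickly, were mostly higher in spleen. Of 20 measured genes 14 fell and 4 rose in culture, with a median of -0.99. Egr2 read 0.64, 0.17, 0.27 and 0.42 in culture and 5.57, 5.55, 5.53 and 5.53 in spleen, and fell by 5.17 ± 0.10 (36.0-fold). Nr4a1, an orphan nuclear receptor, read 1.57, 1.31, 0.96 and 1.48 in culture and between 6.08 and 6.19 in spleen (-4.81 ± 0.12). Fos (-2.52 ± 0.10), Egr1 (-2.47 ± 0.13), Nr4a2 (-2.50 ± 0.29) and the antiproliferative gene Btg2 (-1.77 ± 0.09) fell too, while the phosphatases Dusp2 (1.31) and Dusp5 (1.06) rose.

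Of 21 genes of glycolysis and glucose transport 14 rose and 6 fell, with a median of 0.80. Slc2a6, a glucose transporter family member, read 5.74, 5.50, 5.59 and 5.66 in culture and 1.5, 1.23, 1.54 and 1.18 in spleen (4.26 ± 0.11). Pfkfb3, which makes the activator of phosphofructokinase, rose by 2.31 ± 0.11, the hexokinase Hk2 by 2.22 ± 0.12 and the transporter Slc2a1 by 1.43 ± 0.08. Slc2a3, another glucose transporter, fell by 1.66 ± 0.12. Of 15 genes of the TCA cycle and its feeders 11 fell and 3 rose (median -0.58), led by Idh3a (-1.57 ± 0.14), Fh1 (-1.51 ± 0.11) and Idh2 (-1.5 ± 0.07). Of 25 respiratory chain genes 6 rose and 9 fell, none by 2-fold (1 without the culture array Ciita +/+ replicate 2 or the spleen array Ciita -/- replicate 2 or Ciita +/+ replicate 2), and the median of -0.11 became 0.02 on centring by the 75th percentile. Complex I subunit Ndufs7 (-0.98 ± 0.06) and Cox5a (0.77 ± 0.06) moved most.

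**Figure D4:**
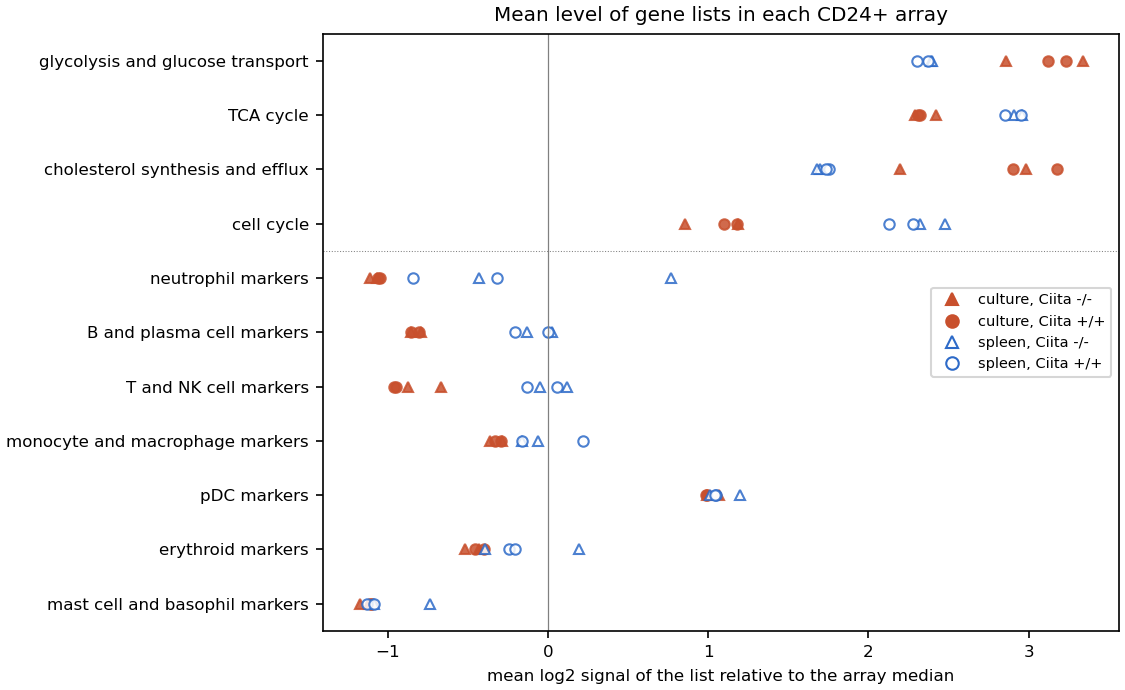
Mean log2 signal, relative to the array median, of all measured members of 4 metabolic and cell cycle lists (above the dotted line) and of 7 lists of other cell types (below it) in each CD24+ array. Filled orange symbols are culture arrays and open blue symbols spleen arrays, with triangles for Ciita -/- and circles for Ciita +/+. The cell cycle list lies between 0.86 and 1.19 in culture and between 2.13 and 2.48 in spleen, and one spleen array reads 0.77 for the neutrophil list.

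Cholesterol synthesis genes rose in 13 of 17 members (1 lower, or 2 without the culture array Ciita -/- replicate 2, median 1.26). Hmgcs1, an early enzyme of the pathway, read 4.25, 3.07, 4.08 and 4.34 in culture and 1.30, 1.15, 1.03 and 1.32 in spleen (2.73 ± 0.24). Idi1 (2.46 ± 0.15), Fdft1 (1.97 ± 0.15), Sqle (1.89 ± 0.26), Sc5d (1.66 ± 0.29) and Msmo1 (1.64 ± 0.28) act later in it. In all 6 the lowest culture value was that of Ciita -/- replicate 2. The list's mean signal was 2.20 to 3.18 over the culture arrays and 1.68 to 1.75 over the spleen arrays, which did not overlap.

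Enzymes that make or remove immune mediators rose in 12 of 20 members and fell in 3. Ptgs2, the inducible cyclooxygenase COX-2, read 4.62, 5.24, 4.89 and 4.22 in culture and 1.48, 1.18, 1.32 and 1.91 in spleen (3.27 ± 0.22). The tryptophan-degrading enzymes Ido1 and Ido2 both rose. Ido1 read 3.48, 2.10, 2.71 and 3.02 in culture and -0.45, -0.10, -0.32 and -0.53 in spleen (3.18 ± 0.28), and Ido2 rose by 2.94 ± 0.10. Kynu, which acts further down the same pathway, rose by 2.35 ± 0.13. Ch25h, which makes an antiviral oxysterol, rose by 2.41 ± 0.17, and the haem oxygenase Hmox1 fell by 2.41 ± 0.10.

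Cell cycle genes were lower in culture in 19 of 23 members, 14 of them by at least 2-fold, and 1 was higher (median -1.41). Mcm2, a subunit of the replicative helicase, read 0.80, 0.81, 0.85 and 0.80 in culture and 3.64, 3.38, 3.39 and 3.32 in spleen (-2.62 ± 0.07). The helicase subunits Mcm6 (-2.31 ± 0.10) and Mcm7 (-2.09 ± 0.09), the mitotic genes Ccnb2 (-2.49 ± 0.09) and Plk1 (-2.22 ± 0.13), and Rrm2, a subunit of ribonucleotide reductase (-1.91 ± 0.15), fell with it. Mki67 (-0.29), Top2a (-0.31) and Cdk1 (-0.08) did not pass, and Tyms (0.38) was the member that rose.

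Of 11 Bcl2 family genes 6 rose (54.5%) and 4 fell (36.4%), not far from the shares of all genes (42.6% and 30.2%). Their median of 0.40 became -0.03 without centring. Bcl2l1, the survival factor Bcl-xL, read 5.39, 5.71, 5.50 and 5.41 in culture and 0.74, 0.97, 0.89 and 0.82 in spleen (4.65 ± 0.09). Bcl2l11, the death factor Bim, rose as well (2.76 ± 0.08), and so did Mcl1 (0.94 ± 0.05), while Bid (-1.11 ± 0.12) and Bad (-0.97 ± 0.07) fell. Of 18 genes of the unfolded protein response 4 rose and 6 fell. The counts were 8 higher and 2 lower in Ciita +/+ mice alone and 3 higher and 6 lower in Ciita -/- mice alone, with none of the genotype differences called. The number that fell was 3 without the culture array Ciita +/+ replicate 1 or the spleen array Ciita -/- replicate 2, and the median of -0.09 became 0.04 on centring by the 75th percentile or without the culture array Ciita -/- replicate 2. Edem1, which removes misfolded proteins (1.56 ± 0.07), and the chaperone Hspa5 (0.97 ± 0.08) rose, and the co-chaperone Dnajb9 fell (-1.26 ± 0.05).

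Of 19 integrin and adhesion genes 10 rose and 6 fell, shares not far from those of all genes (42.6% and 30.2%). Itgb8, a chain of the integrin that activates TGF-beta, read 2.78, 3.27, 2.70 and 2.23 in culture and between -1.14 and -0.96 in spleen (3.79 ± 0.14), and its partner Itgav rose by 1.58 ± 0.07. Itga5 (2.61 ± 0.21), Itgb1 (1.48 ± 0.07), Alcam (1.81 ± 0.08) and the tetraspanin Cd63 (1.55 ± 0.14) rose too. Of 18 receptors for apoptotic cells and Fc regions 10 rose (55.6%) and 5 fell (27.8%), again not far from the shares of all genes. Their median of 0.23 became -0.20 without centring. Axl, a receptor that binds dying cells through Gas6, read 4.42, 3.59, 4.05 and 4.38 in culture and -0.09, 0.09, 0.01 and 0.81 in spleen (3.90 ± 0.23). Fcgr2b, the inhibitory Fc receptor, fell from between 2.77 and 3.11 in spleen to between -0.96 and -0.65 in culture (-3.76 ± 0.10). The lipoprotein receptor Scarb1 fell by 2.59 ± 0.05. Timd4, a receptor for phosphatidylserine, gave 2.64 ± 0.45 with culture arrays spread from 1.59 in Ciita -/- replicate 2 to 3.79. In this list 5 genes rose by at least 2-fold, and 3 did so without the culture array Ciita +/+ replicate 2 or the spleen array Ciita -/- replicate 1.

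Lists of markers of other cell types mostly averaged near or below the array median, except the plasmacytoid DC list (0.98 to 1.20). Members lower in culture made up 78.6% of T and NK cell, 54.5% of plasmacytoid DC and 53.3% of neutrophil markers. They were 50% of B and plasma cell, 46.2% of monocyte and macrophage, 40% of mast cell and basophil, and 33.3% of erythroid markers. Of all genes 30.2% were lower. The mean of the 15 neutrophil markers was -1.11 to -1.05 over the culture arrays and -0.84 to 0.77 over the spleen arrays, the highest being spleen array Ciita -/- replicate 2. There the granule gene Camp read 2.83 against -0.28 to 0.96 in the other spleen arrays, and Ngp read 3.20 against -1.41 to 1.36. Of this list 8 fell (4 without the culture array Ciita +/+ replicate 2 or the spleen array Ciita +/+ replicate 1) and 1 rose. S100a9 gave -1.73 ± 0.33. The same spleen array read 2.92 for the erythroid gene Car1, against 0.22 to 1.19 in the others. Of the 6 erythroid markers 2 fell and 1 rose (2 without the spleen array Ciita -/- replicate 2), with a median of -0.03 that became 0.10 on centring by the 75th percentile.

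The 14 B and plasma cell markers averaged -0.85 to -0.79 in culture and -0.21 to 0.02 in spleen, with 7 lower and 3 higher. Ms4a1, the gene of CD20, read between -1.71 and -1.35 in culture and 2.39, 1.68, 2.06 and 1.99 in spleen (-3.56 ± 0.16), while Cd79a, a defining B cell gene, had low signals between -2.49 and -2.08 in all 8 arrays. Fcrla, an Fc receptor-like gene of this list (-4.14 ± 0.13), read 3.58, 3.66, 3.04 and 2.41 in spleen. The 14 T and NK cell markers averaged -0.96 to -0.67 in culture and -0.13 to 0.12 in spleen, with 11 lower and none higher (1 higher without the culture array Ciita -/- replicate 1). Gzma, a granzyme, gave -2.01 ± 0.07, and the T cell receptor chains Cd3g (-1.64 ± 0.21) and Cd3d (-1.60 ± 0.16) fell.

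Of 13 monocyte and macrophage markers 6 fell (46.2%) and 5 rose (38.5%), against 30.2% and 42.6% of all genes. The count that rose was 3 without the culture array Ciita +/+ replicate 2 and without any 1 of the spleen arrays Ciita -/- replicate 1, Ciita -/- replicate 2 or Ciita +/+ replicate 1. The list averaged -0.36 to -0.29 in culture and -0.16 to 0.22 in spleen, with Spic (-2.32 ± 0.10) falling and Fcgr1 (1.01 ± 0.11) rising. The 11 plasmacytoid DC markers averaged 0.98 to 1.07 in culture and 1.01 to 1.20 in spleen, with Ccr9 (-1.85 ± 0.08) falling and Tcf4 (1.88 ± 0.11) and the interferon-inducible Bst2 (1.43 ± 0.08) rising. Of 10 mast cell and basophil markers 4 fell and 2 rose. None changed by 2-fold, except that 1 fell so far without the spleen array Ciita -/- replicate 1. The 4 that fell became 2 without the culture array Ciita -/- replicate 1 or the spleen array Ciita -/- replicate 2 or Ciita +/+ replicate 1, and 1 without the culture array Ciita +/+ replicate 2. The 2 that rose became 1 without the last of these or the spleen array Ciita -/- replicate 2. The part that other cells in the spleen or culture sorts had in the changes above was not tested.

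The change in CD24+ cells was set against that in CD172a+ cells of the same mice, as the difference between the 2 arrays of each mouse compared between culture and spleen. The 2 changes differed in 5439 genes (28.3%), 2792 of them changed more upwards in CD24+ cells (14.6%) and 2647 less (13.8%). Of the 2872 genes that changed by at least 2-fold in CD24+ cells, 2714 were called in the same direction in CD172a+ cells and 76 in the opposite one, against 78.3% of all genes called in CD172a+ cells (46.7% higher and 31.7% lower in culture). In the cultured CD172a+ cells Cd24a stood at a mean of 6.12, close to the 6.19 of cultured CD24+ cells, while in spleen the means were 3.36 and 5.38. Sirpa was 4.32 in cultured CD172a+ and 1.70 in cultured CD24+ cells. In culture the subset means were thus far apart for Sirpa and close for Cd24a.

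**Figure D5:**
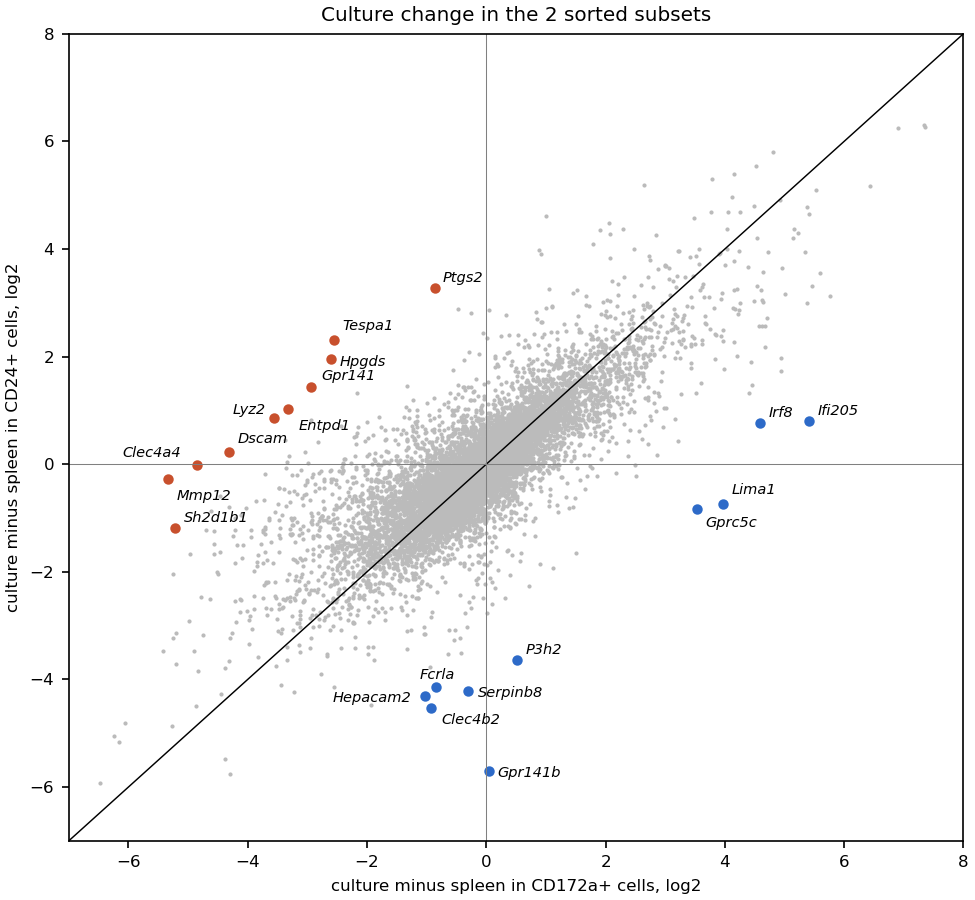
Change between culture and spleen of each of 19187 genes in CD24+ cells (vertical axis) and CD172a+ cells (horizontal axis), both as log2. The diagonal marks equal change, and the 10 genes with the largest positive (orange) and the 10 with the largest negative (blue) difference between the subsets are named. Mmp12 fell by 5.33 in CD172a+ cells and by 0.28 in CD24+ cells, and Gpr141b fell by 5.70 in CD24+ cells and changed by 0.04 in CD172a+ cells.

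Over the 26 type I interferon-stimulated genes the median change was 2.90 in CD24+ and 2.06 in CD172a+ cells. The difference passed in 20 of the 26, with the change higher in CD24+ cells in 15 and lower in 5. Rsad2 rose from a mean of 0.58 to 4.94 in CD24+ cells and from 2.82 to 4.72 in CD172a+ cells, a difference of 2.45 ± 0.10. Oasl2 rose from 0.47 to 4.83 and from 3.34 to 5.63 in the 2 subsets (2.08 ± 0.07). The spleen levels of Rsad2 and Oasl2 were the lower ones in CD24+ cells. Oas2 rose in CD24+ cells (1.45) and fell in CD172a+ cells (-1.33). Over the 10 interferon-inducible GTPases the medians were 3.0 and 3.19, and 4 of 10 differences passed, 2 in each direction.

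The other lists showed both patterns. All 21 cDC1 markers changed differently in the 2 subsets, with medians of -0.99 in CD24+ and 0.44 in CD172a+ cells. Cd8a fell by 1.65 in CD24+ cells and rose by 1.5 in CD172a+ cells, a difference of -3.15 ± 0.18. Over 19 cDC2 markers the medians were -0.65 and -2.19, and 16 differences passed. Pdcd1lg2 rose by 4.61 in CD24+ and by 1.01 in CD172a+ cells (difference 3.60 ± 0.18), Stat4 by 5.18 and 2.65 (2.54 ± 0.20) and Axl by 3.90 and 0.93 (2.98 ± 0.24). In the other direction, Il12b rose by 2.17 in CD24+ and by 4.67 in CD172a+ cells (-2.50 ± 0.08), and Il15 by 2.57 and 4.67 (-2.09 ± 0.14). Ccr7 (1.38 and 1.33, difference 0.05 ± 0.11) and Cd80 (1.57 and 1.55, difference 0.02 ± 0.09) did not differ beyond their error.

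Genes that moved by at least 2-fold in opposite directions, with the difference called, numbered 12. Tespa1, an adaptor of calcium signalling, read 2.55, 1.54, 2.33 and 2.83 in cultured CD24+ cells and 0.04, -0.36, 0.15 and 0.22 in spleen (2.30 ± 0.23), and changed by -2.56 ± 0.13 in CD172a+ cells. Hpgds, which makes prostaglandin D2 (1.95 ± 0.29 and -2.61 ± 0.10), and Entpd1, the ectoenzyme CD39 (1.03 ± 0.11 and -3.32 ± 0.08), showed the same pattern. So did Gpr141, Cd72, Oas2, Lilrb4a, Fcgr4, Atf6 and Rbm47. The call of Fcgr4 in CD24+ cells was lost without any 1 of 4 arrays. Cd8a and Pdia5, a protein disulfide isomerase (-1.92 ± 0.35 and 1.12 ± 0.09), went the other way. Ptgs2 differed by 4.13 between the subsets and stood at 4.74 in culture and 1.47 in spleen in CD24+ cells, and at 4.82 and 5.69 in CD172a+ cells. Irf8 stood at 6.57 and 5.81 in CD24+ cells, and at 6.51 and 1.92 in CD172a+ cells.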

How the data were processed

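CD24+ and CD172a+ dendritic cells were sorted, and per the labels' protocols total RNA was freed of DNA and labelled by whole-transcriptome amplification (Ovation Pico WTA). The deposited table holds log2 signals of 30177 probe sets on 16 arrays, as processed by the authors. Their background correction and normalization are not given in the sources used here. Of the probe sets, 21789 carried 1 gene symbol, 1621 several and 6767 none, and the latter were left out with 751 genes on X or Y.

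From the deposited log2 values, each array was centred on its median and the probe set with the highest mean kept per gene. The 8 CD24+ arrays were fitted with limma 3.58.1 (R 4.3.3), with genotype and source, and p-values were Benjamini-Hochberg adjusted over 19187 genes at a threshold of 0.05. The subset difference was fitted on the difference between the arrays of each of 8 mice, which pairs them by mouse as the labels name it. The deviations of the arrays of a mouse correlated at 0.394, 0.208 and 0.206 in 3 groups and at -0.0967 in spleen Ciita +/+ mice. On simulated data in which only a small part of the genes changed, the CD24+ fit recovered 84% of genes changed by 1 on the log2 scale and 52% of those changed by 0.5. In the real arrays most genes were called, so these shares do not measure the recovery there.

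Named genes were the markers, the 12 largest rises and falls past the threshold with no overlap of arrays, the leading members of each of 34 gene lists and the 10 largest subset differences each way. Genes outside this rule, among them the members named because they alone fell, rose or did not pass in a list, Ccr7, Tnf, Il10, Cd80, Cd86, Tlr4, Tlr9, Ifngr2, Dusp2, Dusp5 and the genes that moved in opposite directions in the subsets, were chosen after their values were seen. Of 637 list names 576 were measured. The members and lists were chosen with earlier results of these data known, and no list was tested as a set.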

Additional observations from a re-analysis of the deposited data

Results flagged for a closer look

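The change between culture and spleen differed between CD24+ and CD172a+ cells in 5439 of 19187 genes (limma, Benjamini-Hochberg adjusted p under 0.05, 4 culture and 4 spleen mice). The 10 genes whose change was most positive in CD24+ relative to CD172a+ cells, and the 10 whose change was most negative, are singled out here for that difference, all on the log2 scale.

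Mmp12 changed by -0.28 in CD24+ and by -5.33 in CD172a+ cells, a difference of 5.05. Tespa1 changed by 2.30 in CD24+ and by -2.56 in CD172a+ cells, a difference of 4.86. Clec4a4 changed by -0.02 in CD24+ and by -4.85 in CD172a+ cells, a difference of 4.83. Hpgds changed by 1.95 in CD24+ and by -2.61 in CD172a+ cells, a difference of 4.55. Dscam changed by 0.24 in CD24+ and by -4.31 in CD172a+ cells, a difference of 4.54. Lyz2 changed by 0.85 in CD24+ and by -3.55 in CD172a+ cells, a difference of 4.41. Gpr141 changed by 1.44 in CD24+ and by -2.95 in CD172a+ cells, a difference of 4.39. Entpd1 changed by 1.03 in CD24+ and by -3.32 in CD172a+ cells, a difference of 4.35. Ptgs2 changed by 3.27 in CD24+ and by -0.86 in CD172a+ cells, a difference of 4.13. Sh2d1b1 changed by -1.18 in CD24+ and by -5.22 in CD172a+ cells, a difference of 4.03. Clec4a4 and Mmp12 changed little in CD24+ cells and fell in CD172a+ cells.

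Gpr141b changed by -5.70 in CD24+ and by 0.04 in CD172a+ cells, a difference of -5.74. Lima1 changed by -0.74 in CD24+ and by 3.97 in CD172a+ cells, a difference of -4.71. Ifi205 changed by 0.80 in CD24+ and by 5.41 in CD172a+ cells, a difference of -4.61. Gprc5c changed by -0.83 in CD24+ and by 3.53 in CD172a+ cells, a difference of -4.36. P3h2 changed by -3.64 in CD24+ and by 0.52 in CD172a+ cells, a difference of -4.15. Serpinb8 changed by -4.21 in CD24+ and by -0.31 in CD172a+ cells, a difference of -3.90. Irf8 changed by 0.76 in CD24+ and by 4.59 in CD172a+ cells, a difference of -3.83. Clec4b2 changed by -4.52 in CD24+ and by -0.93 in CD172a+ cells, a difference of -3.60. Fcrla changed by -4.14 in CD24+ and by -0.84 in CD172a+ cells, a difference of -3.31. Hepacam2 changed by -4.30 in CD24+ and by -1.03 in CD172a+ cells, a difference of -3.27. Gpr141b and its relative Gpr141 differed between the subsets in opposite directions. Each of the 8 groups of the labels held 2 arrays, so no array could be tested as an outlier within its group.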

How the results depend on the processing

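The median of 25 of 34 lists kept its sign under all 3 other scalings. Of 13968 calls, 12005 were called again with the same sign in every fit that left out 1 array. The rest include genes that only lost the call, and changes of sign alone were not counted. Leaving out single arrays gave 12664 to 14233 calls between culture and spleen, 7407 to 8201 higher and 5257 to 6033 lower, 1210 to 1235 higher and 1569 to 1763 lower by at least 2-fold, 0 to 152 for the genotype difference, and 4367 to 5567 for the subset difference (2290 to 2945 higher and 2038 to 2622 lower in CD24+ cells). With no centring 2478 genes were higher and 12279 lower, 696 and 3194 of them by at least 2-fold. With all probe sets, which tests more features, 20981 were called, 12867 of them higher, and the genotype difference gave 1. Tested against a log2 fold change of 1, 1642 were called, 692 higher and 950 lower. With a replicate block, which joins different mice that share a number (r 0.0560 and -0.0299), the culture change gave 13679 and the genotype difference 0. With the pairing by mouse left out, the subset difference gave 5097. In Ciita +/+ arrays alone H2-Eb1 (0.090), H2-Eb2 (0.12) and Creld2 (0.21) turned. With no centring Cd74 (-0.17), H2-Aa (-0.38), Klf1 (-0.28), Slc4a1 (-0.39), Dscam (-0.19), Kit (-0.38), Cd79a (-0.38) and Pax5 (-0.033) turned, and under quantile normalization Kit (-0.29). The cause was not tested. No detection call limits what low signals show.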
